A study of Mus musculus with 2 samples.

Results

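The genes described here are those of the DNA methylation machinery: the DNA methyltransferases Dnmt1, Dnmt3a and Dnmt3b, their catalytically inactive relative Dnmt3l, the partners Uhrf1 and Hells, and the dioxygenases Tet1, Tet2 and Tet3. They were chosen by name, and all 9 were found among the 36547 genes of the count tables. The tables came from testes of 12-week-old C57BL/6 mice, 1 single-cell RNA library from WT animals and 1 from KO animals of the genotype Alkbh5-/-, which were born to heterozygous parents and lack, in all tissues, an RNA demethylase that removes N6-methyladenosine. The study's texts differ on whether 1 or 3 mice stand behind each library, and there was 1 library per genotype. No difference between the genotypes therefore has a replicate check, no test between them was made, and the genotype and the library cannot be told apart.

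Methyl groups on cytosines of CpG sites keep retrotransposons and imprinted genes silent, and in male germ cells they are erased and laid down anew before birth. DNMT1 copies the pattern onto the new strand at replication, guided by UHRF1, which recognises hemimethylated CpG sites, and aided by HELLS, a chromatin remodeller of the SNF2 family. DNMT3A and DNMT3B write new methylation, and DNMT3L, which has no activity of its own, stimulates them and is known for its role in prospermatogonia. TET1, TET2 and TET3 oxidise 5-methylcytosine, the first step of active demethylation.

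The WT library held 5756 cells with 80283221 unique molecular identifiers (UMIs, each standing for 1 captured RNA molecule), and the KO library held 7012 cells with 82056760 UMIs. Alkbh5 had 607 UMIs in WT and 5 in KO. The libraries shared 45 cell barcodes. The cells fell into 16 clusters, named from marker genes and called "-like" for that reason, and the 9 genes were kept out of the clustering. The 2 libraries differed in what they held: 190 WT and 1061 KO cells were spermatogonia-like, 93 and 1167 Leydig-like, 52 and 489 Sertoli-like, and 2420 and 1314 sperm-like, a name that covers elongating and condensing spermatids. Levels are given as UMIs of a gene per 1000000 UMIs of the cells concerned (CPM), with 95% Poisson intervals that cover counting error only. CPM values are compared for 1 gene across cells, never between genes.

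The borders between neighbouring classes are soft. With another random seed of the clustering, 1064 WT and 996 KO cells were early-stage round spermatid-like, in place of 650 and 614, and 854 and 795 were mid-stage, in place of 1214 and 1147. Spermatogonia-like cells numbered 189 and 1065 with that seed. Levels in early-stage and mid-stage round spermatids thus depend on where the border fell.

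Because the mixture of cells differed, sums over a whole library said little about any cell. Dnmt1 was at 6.99 CPM in the whole WT library and at 27.3 CPM in the whole KO library, and Hells was at 21.7 and 113.7 CPM. Within spermatogonia-like cells the same genes differed far less, at 181 CPM (161 to 202) against 209.7 CPM (200 to 219.8) for Dnmt1 and at 749.7 CPM (709 to 792) against 899 CPM (879 to 919.5) for Hells. Levels are therefore compared between the libraries within clusters. The shares of all UMIs of a gene that a class held move with the mixture of cells and only describe each library.

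**Figure D1:**
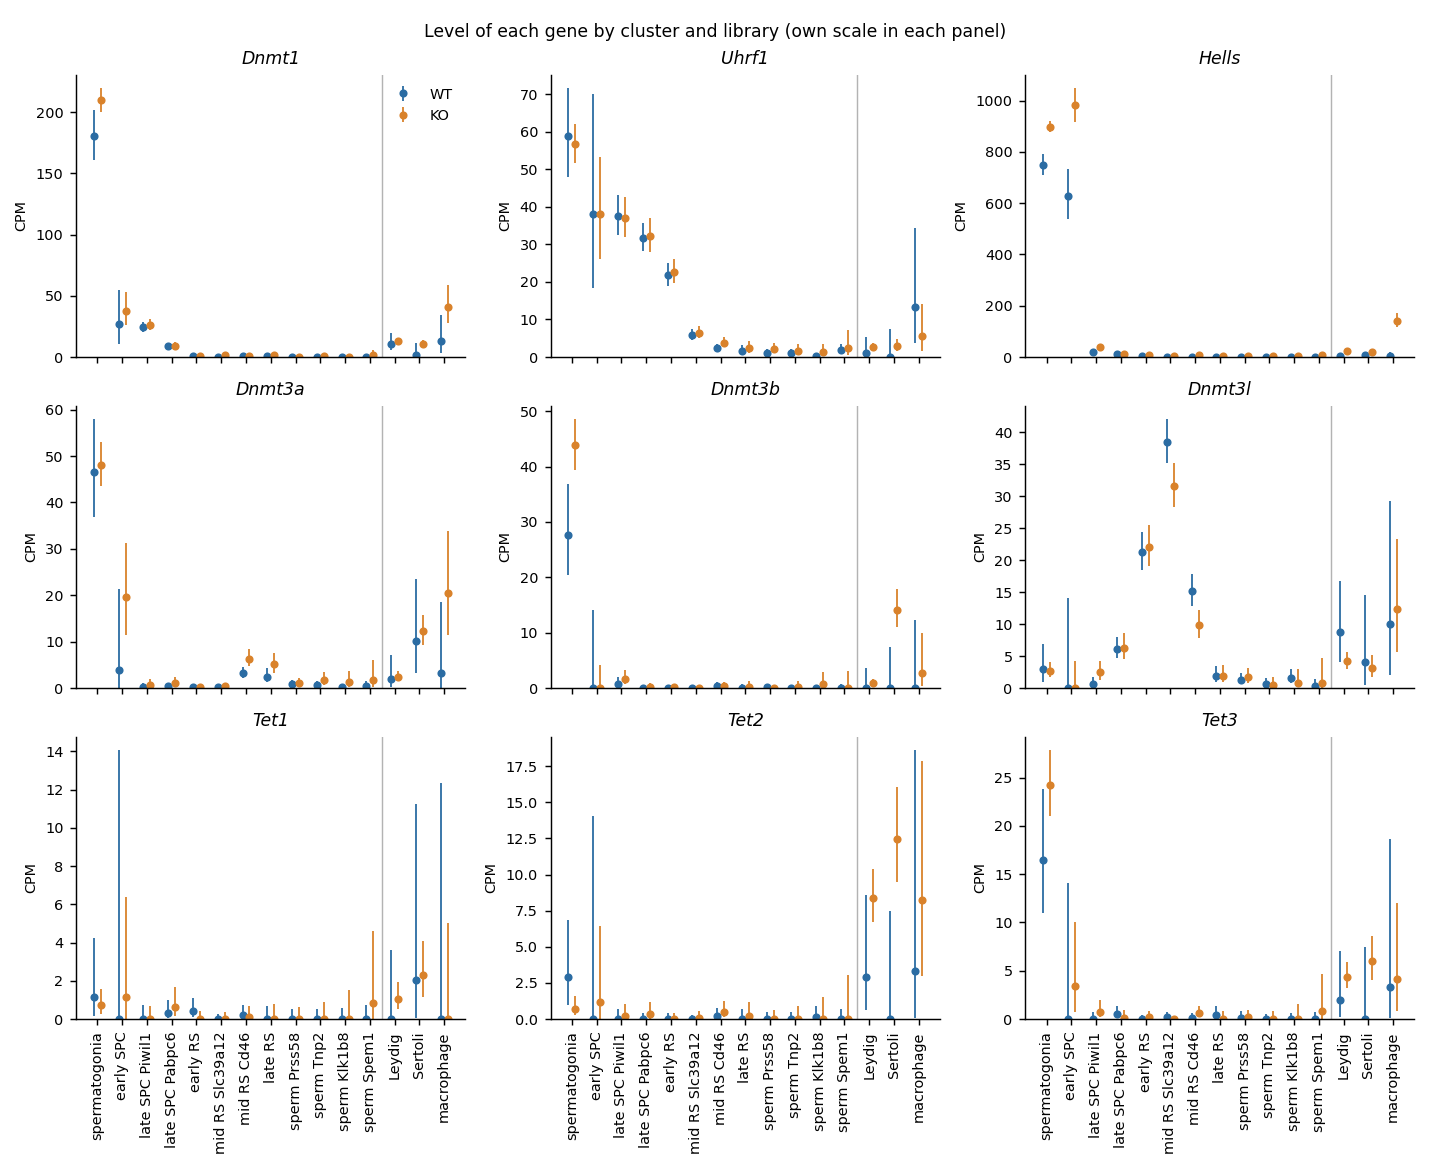
Level of each gene in CPM (vertical axis, its own scale in each panel, starting at 0) in 12 germ cell clusters and, right of the grey line, 3 somatic clusters. Points are the sums of the WT (blue) and KO (orange) libraries, bars are 95% Poisson intervals, SPC is spermatocyte and RS is round spermatid. Dnmt1, Dnmt3a and Dnmt3b were highest in spermatogonia-like cells, Uhrf1 declined slowly up to the round spermatids, and Dnmt3l was highest in round spermatids, at 38.5 CPM in WT and 31.5 CPM in KO.

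The maintenance genes Dnmt1, Uhrf1 and Hells were highest in spermatogonia-like or early spermatocyte-like cells. Dnmt1 was highest in spermatogonia-like cells, where it had 307 UMIs in WT and 1746 UMIs in KO. It was at 26.7 CPM (10.7 to 55.0) in WT and 38.0 CPM (26.1 to 53.3) in KO early spermatocyte-like cells, a class led by Rad51ap2, Ccnb3 and Meiob. Clusters are named here for 1 of their leading genes. In late spermatocyte-like cells it stood at 24.2 CPM in WT and 26.5 CPM in KO in the cluster led by Piwil1, and at 9.26 and 9.25 CPM in the later cluster led by Pabpc6. Down to early-stage round spermatid-like cells the 2 libraries gave the same series of steps, with overlapping intervals from early spermatocytes on. In early-stage round spermatid-like cells only 10 WT and 9 KO UMIs were left, 1.06 CPM and 1.08 CPM. Mid-stage round spermatid-like cells held 10 WT and 24 KO UMIs of Dnmt1, a log2 ratio of KO over WT of 1.49 (0.38 to 2.72). The part in it of RNA freed from other cells, which is taken up further on, was not tested. Between spermatogonia-like and late spermatocyte-like cells as a whole, the fold was 12.3 (10.3 to 14.7) in WT and 12.2 (10.5 to 14.2) in KO.

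Uhrf1 did not follow Dnmt1 out of the spermatogonia. It was at 58.9 CPM (47.9 to 71.6) in WT spermatogonia-like cells and at 56.7 CPM (51.7 to 62.0) in KO. The Piwil1 cluster held 37.5 CPM in WT and 37.0 CPM in KO, and the Pabpc6 cluster 31.8 and 32.3 CPM. Its drop from spermatogonia-like to late spermatocyte-like cells was 1.74-fold (1.39 to 2.16) in WT and 1.65-fold (1.44 to 1.89) in KO, so the intervals of Uhrf1 and Dnmt1 for the same step did not overlap in either library. After meiosis Uhrf1 was still at 21.8 CPM (18.9 to 25) in WT and 22.7 CPM (19.6 to 26.2) in KO early-stage round spermatid-like cells. It was at 5.91 CPM and 6.52 CPM in the following cluster led by Slc39a12, with 75 WT and 69 KO UMIs. By shares, which the mixture of cells sets in part, late spermatocyte-like cells held 51.5% of all Uhrf1 UMIs of the WT library and 31.0% of those of the KO library, and spermatogonia-like cells held 10.8% and 37.2%.

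Hells had the steepest drop of the maintenance genes between spermatogonia-like and late spermatocyte-like cells. It was at 629 CPM (537 to 733) in WT and 981 CPM (917 to 1049.5) in KO early spermatocyte-like cells, a log2 difference from spermatogonia-like cells of -0.25 (-0.50 to -0.02) in WT and 0.13 (0.02 to 0.23) in KO. In the Piwil1 cluster it was at 17.8 CPM (14.3 to 21.8) in WT and 39.1 CPM (33.9 to 44.8) in KO. From spermatogonia-like to late spermatocyte-like cells the level was 56.5-fold (48.4 to 66.2) lower in WT and 36.7-fold (32.6 to 41.6) lower in KO. By exact Clopper-Pearson intervals, a UMI of Hells was found in 95.3% (91.2 to 97.8) of WT and 97.3% (96.1 to 98.2) of KO spermatogonia-like cells, which had median depths of 7708.5 and 6879 UMIs. The share was 3.08% in WT and 5.54% in KO early-stage round spermatid-like cells, which were deeper, at 10998 and 10931.5 UMIs. When each cell was thinned to 5729 UMIs, the shares in spermatogonia-like cells were 90.3% in WT and 95.9% in KO, after 25 and 255 shallower cells had been left out.

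Promoter windows are shown for the maintenance genes and for Dnmt3l. The former were highest in spermatogonia-like or early spermatocyte-like cells, with different courses after that, and Dnmt3l was highest in round spermatids. A window runs from 250 bases before to 50 bases after an annotated start, 5′ to 3′ on the gene's strand, and comes from RefSeq on GRCm38.p6. The 4 words TTTCCCGC, TTTCGCGC, TTTGCCGC and TTTGGCGC, common forms of the site bound by E2F factors, which act on genes of DNA replication, were searched on both strands. All begin with TTT and end with GC, and a match is marked in capitals. Matches were found at chr9:20952574-20952873 (minus strand) for Dnmt1, at window positions 32 and 284, at chr17:56304063-56304362 (plus strand) for Uhrf1, at position 66, and at chr19:38930740-38931039 (plus strand) for Hells, at position 189. Of the windows of Dnmt1 and Uhrf1, the one with a match is shown. The window at chr10:78042037-78042336 (plus strand) of Dnmt3l holds none.
Dnmt1: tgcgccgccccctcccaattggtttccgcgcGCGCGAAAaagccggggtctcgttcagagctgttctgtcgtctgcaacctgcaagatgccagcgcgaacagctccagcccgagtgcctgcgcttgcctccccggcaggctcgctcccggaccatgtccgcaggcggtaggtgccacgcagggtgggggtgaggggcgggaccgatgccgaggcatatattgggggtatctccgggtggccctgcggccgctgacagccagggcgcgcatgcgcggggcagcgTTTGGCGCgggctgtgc
Uhrf1: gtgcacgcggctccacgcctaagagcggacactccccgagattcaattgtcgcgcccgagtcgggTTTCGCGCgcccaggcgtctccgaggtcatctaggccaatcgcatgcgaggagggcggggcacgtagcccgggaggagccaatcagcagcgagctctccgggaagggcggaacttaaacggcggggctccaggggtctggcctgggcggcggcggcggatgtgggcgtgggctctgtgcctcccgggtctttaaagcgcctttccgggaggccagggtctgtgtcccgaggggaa
Hells: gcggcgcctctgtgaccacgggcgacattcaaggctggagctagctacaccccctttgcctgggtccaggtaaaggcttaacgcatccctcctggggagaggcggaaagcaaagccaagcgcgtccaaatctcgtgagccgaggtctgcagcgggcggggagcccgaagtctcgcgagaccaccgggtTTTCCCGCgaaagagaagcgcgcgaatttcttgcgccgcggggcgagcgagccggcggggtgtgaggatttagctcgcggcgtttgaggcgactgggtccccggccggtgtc
Dnmt3l: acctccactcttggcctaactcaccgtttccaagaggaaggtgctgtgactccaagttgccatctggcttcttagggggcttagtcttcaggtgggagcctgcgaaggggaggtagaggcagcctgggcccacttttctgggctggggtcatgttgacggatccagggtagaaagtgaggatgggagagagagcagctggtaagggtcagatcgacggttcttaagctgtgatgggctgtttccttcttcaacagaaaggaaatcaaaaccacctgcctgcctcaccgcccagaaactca

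Of the 9 genes, 3 had a match in at least 1 of their windows, 16 in all. Dnmt3a, Dnmt3b and Tet3, which were also highest in spermatogonia-like cells, had none, so a match did not go with that stage in general. Over all promoters of this table, 2.26% of 32851 windows and 2.61% of 27025 genes held a match, and 7 of 21 genes of a list of S phase genes did. Of a list of G2 and M phase genes 1 of 10 did. Of the lists of other DNA methylation genes taken up further on, the counts were 0 of 8 readers, 0 of 12 genes of base repair, 0 of 7 of methyl donors, 1 of 11 of recruitment and 0 of 5 of retrotransposon silencing. A match is a string of letters and says nothing on binding. The windows also differed in CpG content, within genes as well as between them. The observed over expected ratio of CpG was 0.910, 0.50 and 0.101 for the 3 windows of Dnmt1, 0.959 and 0.472 for the 2 of Uhrf1, the printed window first, and 1.06 for Hells. It was 0.272, 0.219 and 0.114 for the 3 windows of Dnmt3l, where the median of all windows was 0.384. The lowest window of Dnmt1 was thus below each window of Dnmt3l. The reads do not tell which of several starts was used.

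Spermatogonia-like and early spermatocyte-like cells, 1405 in all, were clustered again to separate their stages. This gave an undifferentiated spermatogonia-like group of 9 WT and 178 KO cells, groups led by Ascl2 (72 and 359 cells) and by Esx1 (30 and 167), a preleptotene-like group (48 and 238), a leptotene to zygotene-like group (23 and 78), and a group led by Tnp2 (42 and 161). In the last of these the sperm marker list made up 8.68% of the UMIs in WT and 7.85% in KO, against at most 1.44% in any other group. The undifferentiated group took 4.02% of the reclustered cells in WT and 15.1% in KO.

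**Figure D2:**
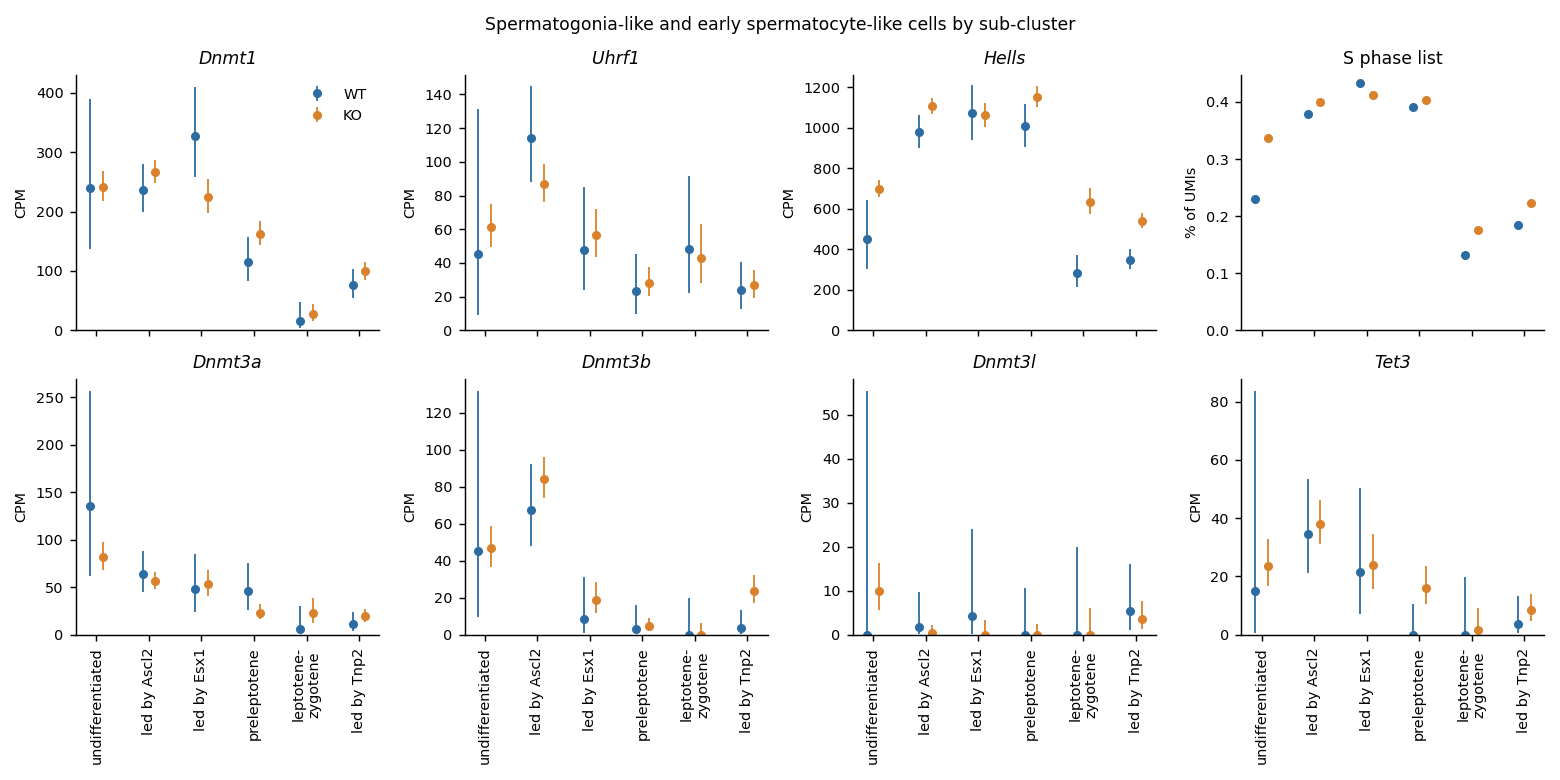
Levels in the 6 sub-clusters of spermatogonia-like and early spermatocyte-like cells, in CPM with 95% Poisson intervals for 7 genes, and as a percentage of UMIs for the list of S phase genes, for WT (blue) and KO (orange). Dnmt3b was highest in the group led by Ascl2, at 67.4 CPM in WT and 84.2 CPM in KO, and Hells lay between 978 and 1154 CPM from that group to the preleptotene-like group.

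Within these stages Dnmt1 was at 240.2 CPM in WT and 242 CPM in KO undifferentiated spermatogonia-like cells and at 237 and 267 CPM in the group led by Ascl2. In the group led by Esx1, Dnmt1 was at 328 CPM (259 to 411) in WT and 225 CPM (198 to 255) in KO, a log2 ratio of KO over WT of -0.54 (-0.92 to -0.15), against the direction in the class as a whole. It was at 115 CPM (82.4 to 157) in WT and 163 CPM (143 to 184) in KO preleptotene-like cells, and at 16.1 CPM and 28.1 CPM in leptotene to zygotene-like cells. Hells took a later course than Dnmt1. It was at 450.3 CPM in WT and 697 CPM in KO undifferentiated cells, at 978 and 1108 CPM in the group led by Ascl2, at 1071 and 1063 CPM in that led by Esx1 and at 1006 and 1154 CPM in preleptotene-like cells. The S phase list was at 0.378% of UMIs in WT and 0.4003% in KO in the group led by Ascl2, at 0.433% and 0.413% in that led by Esx1, and at 0.392% and 0.403% in preleptotene-like cells, which copy their DNA before meiosis. Preleptotene-like cells did not stand above the group led by Esx1. That list, which holds none of the 9 genes, was at 0.132% and 0.175% in leptotene to zygotene-like cells, where Hells was still at 285 CPM (213 to 373) in WT and 635 CPM (573 to 702) in KO.

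Uhrf1 was highest in the group led by Ascl2, at 114 CPM (88.2 to 145) in WT and 86.8 CPM (76.0 to 98.7) in KO. It was at 23.1 CPM and 28.2 CPM in preleptotene-like cells, and at 48.4 CPM (22.1 to 91.8) and 43.0 CPM (28.1 to 63.0) in leptotene to zygotene-like cells. Preleptotene-like cells thus lay below both the earlier groups and the leptotene to zygotene-like group in both libraries, by point estimates whose intervals overlap in part. The group led by Tnp2 was at 23.6 and 26.6 CPM.

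The de novo methyltransferases Dnmt3a and Dnmt3b were genes of spermatogonia in these libraries. Dnmt3a was at 46.5 CPM (36.8 to 58.0) in WT and 48.2 CPM (43.6 to 53.1) in KO spermatogonia-like cells, and at no more than 1.14 CPM in any late spermatocyte-like cluster. By sub-cluster it was highest in undifferentiated cells, at 135 CPM in WT (9 UMIs) and 81.5 CPM in KO (124 UMIs). Preleptotene-like cells held 46.1 CPM in WT and 23.1 CPM in KO, a log2 ratio of -1.001 (-1.89 to -0.05) that rests on 16 and 36 UMIs.

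Dnmt3b was nearly gone by the preleptotene-like group. It is itself among the 10 leading genes of the group led by Ascl2, so its level there is a description only. It was at 45.0 CPM in WT (3 UMIs) and 46.7 CPM in KO undifferentiated cells, at 67.4 CPM (47.9 to 92.1) and 84.2 CPM (73.6 to 95.9) in the group led by Ascl2, and at 8.64 and 18.5 CPM in that led by Esx1. In preleptotene-like cells 1 WT and 7 KO UMIs were found. No UMI of Dnmt3b was found in early spermatocyte-like cells of either library, which allows up to 11.4 CPM in WT and 3.45 CPM in KO at 3 counts. Spermatogonia-like cells held 83.9% of all Dnmt3b UMIs of the WT library and 78.8% of those of the KO library.

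Dnmt3l ran the other way. Spermatogonia-like cells held 5 WT and 22 KO UMIs, 2.94 CPM and 2.64 CPM, and early spermatocyte-like cells none. The gene was at 6.14 CPM (4.62 to 7.99) in WT and 6.33 CPM (4.50 to 8.65) in KO in the Pabpc6 cluster. It then stood at 21.3 CPM (18.4 to 24.4) and 22.1 CPM (19.0 to 25.5) in early-stage round spermatid-like cells, where it had 200 and 184 UMIs. The level in these cells was 7.22-fold (3.04 to 22.5) that of spermatogonia-like cells in WT and 8.36-fold (5.36 to 13.7) in KO. Among the mid-stage round spermatid-like cells it was highest of all in the cluster led by Slc39a12, at 38.5 CPM (35.1 to 42.1) in WT and 31.5 CPM (28.2 to 35.1) in KO. The cluster led by Cd46, the next in order, was at 15.1 CPM (12.8 to 17.8) and 9.84 CPM (7.83 to 12.2), and late-stage round spermatid-like cells were at 1.91 and 1.91 CPM.

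In the Slc39a12 cluster 43.1% (39.5 to 46.8) of WT and 33.9% (30.3 to 37.6) of KO cells had a UMI of Dnmt3l, at median depths of 13739 and 12675.5 UMIs, and 24.8% and 22.0% of early-stage round spermatid-like cells did. Sperm-like cells had one in 0.9504% and 0.989%, at median depths of 8921.5 and 8384 UMIs. Early and mid-stage round spermatid-like cells together held most of its UMIs in the testis: 21.2% and 66.9% in WT, 24.1% and 54.4% in KO. RNA of the writers that DNMT3L stimulates was nearly absent from early-stage round spermatid-like cells, where Dnmt3a had 2 WT and 2 KO UMIs and Dnmt3b 0 and 1. UMIs summed per gene do not tell which start of Dnmt3l was used, nor whether DNMT3L protein was made. Of the 161 WT and 135 KO cells of that stage with a UMI of Dnmt3l, 1 WT and 0 KO cells also had a UMI of Dnmt3a. Only 2 WT and 2 KO cells of the stage had a UMI of Dnmt3a at all, so hardly any could hold both. The pair was not counted in the Cd46 cluster, where Dnmt3l had 144 WT and 82 KO UMIs and Dnmt3a 31 and 53. In undifferentiated spermatogonia-like cells of the KO library Dnmt3l had 15 UMIs, 9.86 CPM, and in the 9 WT cells none.

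Dnmt3a was higher again after the Dnmt3l maximum. It had 4 WT and 5 KO UMIs in the Slc39a12 cluster, but 31 and 53 in the Cd46 cluster, 3.26 CPM (2.21 to 4.63) in WT and 6.36 CPM (4.76 to 8.32) in KO. Late-stage round spermatid-like cells followed at 2.48 CPM (1.32 to 4.25) and 5.11 CPM (3.27 to 7.60). Mid-stage as a whole stood 7.41-fold (1.90 to 63.6) above early-stage round spermatid-like cells in WT and 12.8-fold (3.38 to 108) above them in KO. Genes on the opposite strand overlap Dnmt3a (Dnmt3aos, 4 WT and 1 KO UMIs in all), Dnmt3b (Dnmt3bos, 27 and 28), Dnmt3l (Aire, 13 and 9) and Tet2 (Gm42567, 0 and 7), and the strand setting of the counting is not given in the sources used here.

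The TET genes were sparse in germ cells. Tet1 had 12 UMIs in the whole WT library and 35 in the KO library, too few for a comparison by stage. Tet3 was the one with a germ line stage: it was at 16.5 CPM (10.96 to 23.8) in WT and 24.3 CPM (21.0 to 27.9) in KO spermatogonia-like cells. By sub-cluster its highest level was in the group led by Ascl2, at 34.5 CPM and 38.0 CPM. Preleptotene-like cells held 0 WT and 25 KO UMIs, 16.0 CPM in KO. The lower limit of the log2 ratio of KO over WT there was 0.48. Late spermatocyte-like cells held 5 WT and 5 KO UMIs, and the fold from spermatogonia-like cells was 46.4 (17.7 to 154) in WT and 55.3 (23.3 to 172) in KO. Tet3 was not confined to germ cells in KO. Leydig-like cells there held 45 UMIs (4.40 CPM) and Sertoli-like cells 29 UMIs (6.02 CPM), 15.2% and 9.80% of all its UMIs. In WT these classes held 2 and 0 UMIs.

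Tet2 was highest in somatic cells in the KO library. It had 6 UMIs in the 1061 KO spermatogonia-like cells, 86 UMIs in KO Leydig-like cells and 60 in KO Sertoli-like cells. The levels were 0.721 CPM (0.264 to 1.57), 8.41 CPM (6.73 to 10.4) and 12.5 CPM (9.51 to 16.0). Leydig-like cells were thus 11.7-fold (5.15 to 32.7) and Sertoli-like cells 17.3-fold (7.50 to 49.0) above spermatogonia-like cells. In WT the same classes held 5, 3 and 0 UMIs, too few to place them in an order. A UMI of Tet2 was found in 6.68% of KO Leydig-like cells and 10.6% of KO Sertoli-like cells, against 0.566% of KO spermatogonia-like cells, at median depths of 7872, 9001 and 6879 UMIs.

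Sertoli-like cells, the nurse cells of the tubule, also held RNA of the de novo enzymes. In KO Dnmt3a was at 12.3 CPM (9.33 to 15.8) and Dnmt3b at 14.1 CPM (10.97 to 17.9). The same genes were 5.01-fold (3.09 to 8.35) and 16.0-fold (7.97 to 36.6) lower in KO Leydig-like cells, the steroid-producing cells between the tubules. WT Sertoli-like cells held 5 UMIs of Dnmt3a, 10.1 CPM (3.28 to 23.6), and 0 of Dnmt3b. Dnmt3a was not particular to Sertoli-like cells among somatic classes. KO macrophage-like cells held 15 UMIs of it, 20.5 CPM, and 2 UMIs of Dnmt3b, and WT macrophage-like cells held 1 and 0. Dnmt1 was at 10.7 CPM (5.36 to 19.2) in WT and 12.8 CPM (10.7 to 15.2) in KO Leydig-like cells.

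RNA freed from other cells can give UMIs in any droplet, so levels outside spermatogonia were set beside Stra8 and Crabp1, markers of spermatogonia, each as a percentage of its own level in spermatogonia-like cells of the same library. The median of this percentage over the 11 spermatogonia markers with at least 20 UMIs in spermatogonia-like cells of both libraries is given with them, although other cells express some of these markers, of which 1 reached 698% in WT late spermatocyte-like cells. In KO Leydig-like cells Stra8 was at 2.41%, Crabp1 at 2.75%, Hells at 2.78%, Uhrf1 at 4.48% and Dnmt1 at 6.11%. In WT Leydig-like cells Stra8 and Crabp1 were at 0, Hells at 0.782%, Uhrf1 at 1.66% (1 UMI) and Dnmt1 at 5.94%. The median marker was at 0 in WT and 2.75% in KO. Hells in KO Leydig-like cells was thus at the percentage of the markers, while Dnmt1 was above both markers and the median in both libraries. The highest marker reached 132% in WT and 190% in KO. Late spermatocyte-like cells held 36.9% of Dnmt1 UMIs in WT and 8.75% in KO, but had Stra8 at 0.0640% and 0.502% and Crabp1 at 0.168% and 0.510%. The 2 markers do not track RNA freed from those cells, so they cannot separate it from expression of Dnmt1. KO macrophage-like cells, 70 in number, had Hells at 15.8%, Stra8 at 10.4% and Crabp1 at 14.1%. Tet2 in KO Leydig-like cells was at 1167% of its level in spermatogonia-like cells. Dnmt3b in KO Sertoli-like cells was at 32.2%, where Stra8 was at 0.991%, Crabp1 at 1.21%, the median marker at 1.598% and the highest marker at 58.7%.

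**Figure D3:**
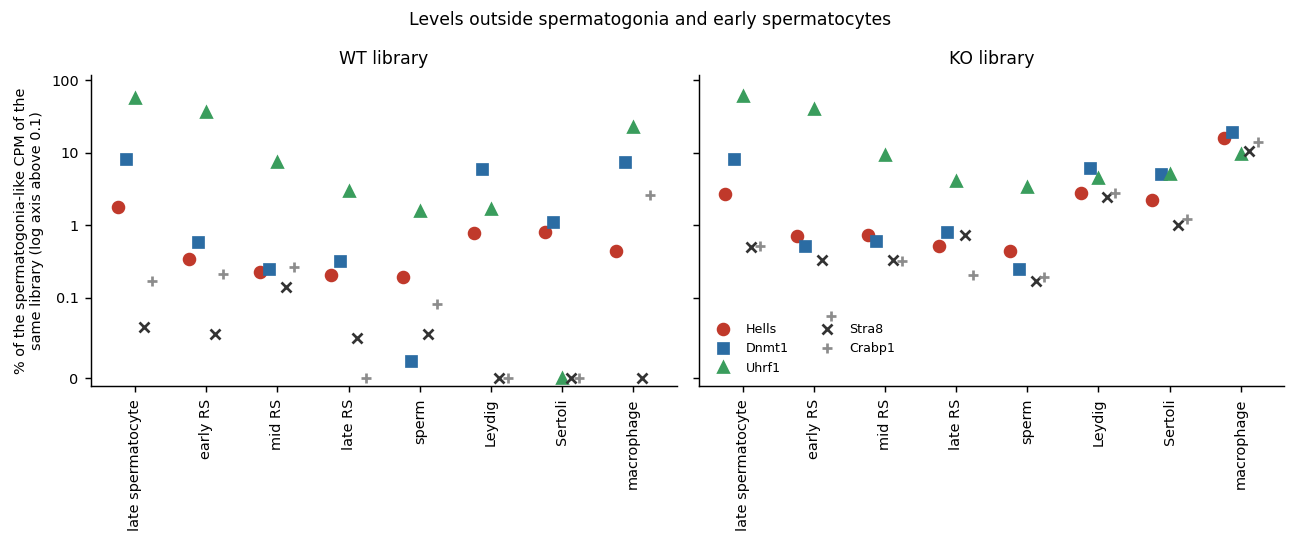
Levels of Hells, Dnmt1 and Uhrf1 and of Stra8 and Crabp1, the pair of spermatogonia markers plotted, in 8 classes, as a percentage of the CPM of the same gene in spermatogonia-like cells of the same library (vertical axis, logarithmic above 0.1 and linear below). Uhrf1 lay above both markers in late spermatocytes and early round spermatids of both libraries, at 57.5% and 37.0% in WT, and in KO Leydig-like cells Hells (2.78%) lay beside Crabp1 (2.75%).

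The libraries were then compared within 7 classes. A gene was counted when its CPM differed by at least 1.5 times and it had at least 50 UMIs in both libraries together, and the share of all genes with 50 UMIs that differ as much in the same direction is the background. Since the count takes no account of counting error, the interval of the ratio is given for the genes counted. Of the 27 pairs of gene and class with enough UMIs, 12 were higher in KO and 1 was lower. Sertoli-like cells gave 4 of the 12, in a class where 59.0% of all genes were higher. Hells was counted in each of the 7 classes but spermatogonia-like cells. Pairs in other classes were not counted, and those past the fold are given after the mid-stage round spermatids. The background differed by class and is given with each class below.

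In spermatogonia-like cells 1 of 6 genes with enough UMIs was higher in KO and 0 lower, where 10.9% of 10855 genes were higher and 15.5% lower. That gene was Dnmt3b, at 27.7 CPM (20.3 to 36.8) in WT and 43.8 CPM (39.5 to 48.6) in KO, a log2 ratio of 0.66 (0.22 to 1.13). It was under 1.5 times when doublets were removed (0.49), without integration (0.49), with equal weight of sub-clusters (0.48), at a clustering resolution of 0.8 (0.56), with thinned cells (0.41) and without the group led by Tnp2 (0.33). In that group Dnmt3b had 2 WT and 40 KO UMIs, and in the group led by Ascl2 the ratio was 0.32. Hells had a log2 ratio of 0.26 (0.18 to 0.35), below the fold, and one of 0.07 (-0.02 to 0.16) without the group led by Tnp2. Dnmt1 had one of 0.21 (0.04 to 0.39), and of 0.0086 with equal weight of sub-clusters. Those of Uhrf1, Dnmt3a and Tet3 were -0.05, 0.05 and 0.56, with intervals that include 0.

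**Figure D4:**
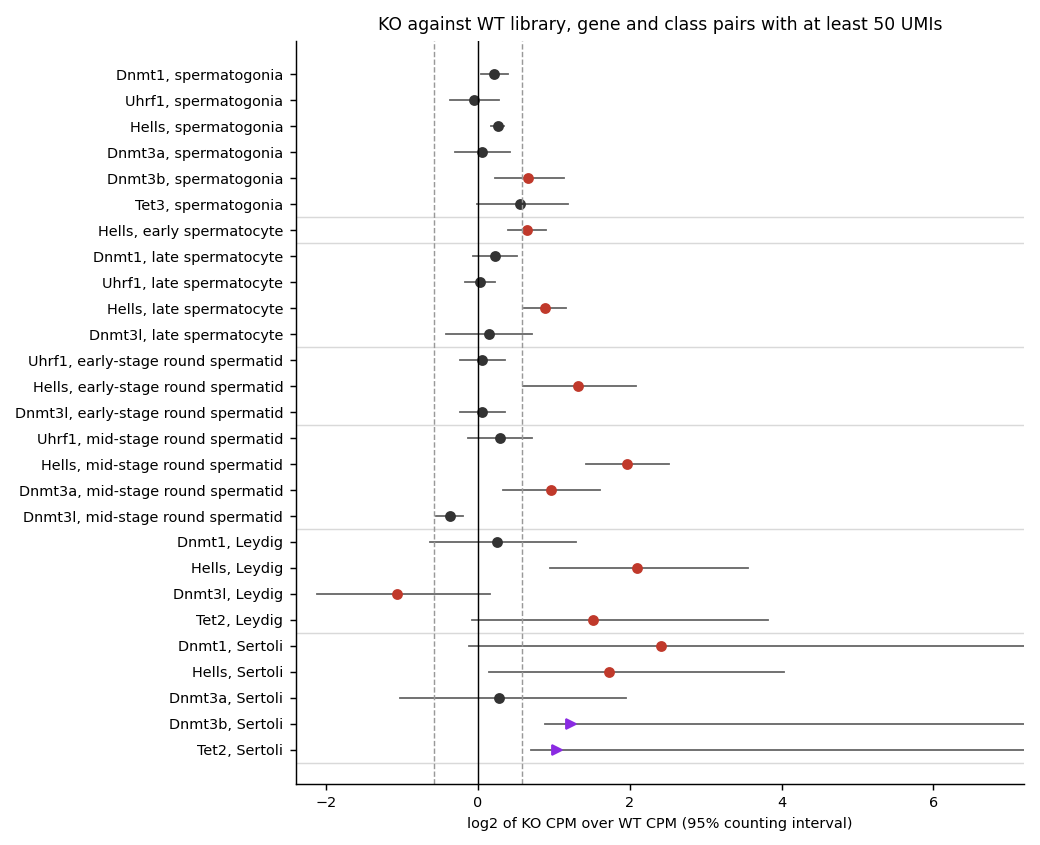
Log2 ratio of the KO over the WT CPM (horizontal axis) for the 27 pairs of gene and class with at least 50 UMIs in the classes compared, with 95% counting intervals. Red points are past 1.5 times (dashed lines) and black points are not. Purple triangles mark the ratio that 3 counts in WT would give where WT had 0 UMIs, and lines that reach an edge run on. Among the classes shown, Hells was higher in KO in each but spermatogonia-like cells by at least 1.5 times, up to a log2 ratio of 2.09 in Leydig-like cells. In KO Leydig-like cells Hells was at 2.78% of its level in spermatogonia-like cells, with Stra8 at 2.41% and Crabp1 at 2.75%.

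Hells was the gene with most of these differences. In early spermatocyte-like cells it was the only gene with enough UMIs, and its log2 ratio was 0.64 (0.40 to 0.89), where 10.1% of genes were higher and 9.34% lower. It was under 1.5 times without integration of the libraries (0.29), with thinned cells (0.42), with equal weight of sub-clusters (0.46) and at a clustering resolution of 0.8 (0.54). Its ratio was 1.16 (0.74 to 1.599) in leptotene to zygotene-like cells and 0.20 (0.03 to 0.37) in preleptotene-like cells. In late spermatocyte-like cells 1 of 4 genes was higher, Hells at 0.88 (0.61 to 1.16), with a background of 10.3% higher and 7.47% lower. The difference lay in the Piwil1 cluster, at 1.14 (0.78 to 1.51), where the list of early spermatocyte markers was at 0.126% of UMIs in WT and 0.198% in KO. In the Pabpc6 cluster the ratio was 0.16 (-0.29 to 0.62) and the list was at 0.0793% and 0.0991%. As a percentage of the level in spermatogonia-like cells, Hells in the Piwil1 cluster was at 2.37% in WT and 4.35% in KO. Stra8 was at 0 and 0.637%, Crabp1 at 0.231% and 0.8004%, and the median marker at 0.345% and 0.928%. The markers were thus also higher in KO, and Hells lay above the 3 values in both libraries. The part of these in the Hells difference was not tested.

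Round spermatids held little Hells, so its ratios there rest on low levels. In early-stage round spermatid-like cells 1 of 3 genes was higher, Hells with 24 WT and 53 KO UMIs, 2.55 CPM and 6.37 CPM, a ratio of 1.32 (0.60 to 2.08), where the background was 7.55% higher and 6.89% lower. By the percentage of the level in spermatogonia-like cells, Hells was at 0.340% in WT and 0.708% in KO, Stra8 at 0.0548% and 0.330%, and Crabp1 at 0.210% and 0.0776%. The median marker was at 0.437% and 1.10%, above Hells in both libraries. Uhrf1 and Dnmt3l had log2 ratios of 0.06 (-0.23 to 0.35) and 0.06 (-0.24 to 0.35).

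In mid-stage round spermatid-like cells 2 of 4 genes were higher, with 15.1% of all genes higher and 6.52% lower. Hells had a ratio of 1.96 (1.43 to 2.52). By the percentage of the level in spermatogonia-like cells, Hells was at 0.228% in WT and 0.741% in KO, Stra8 at 0.139% and 0.328%, and Crabp1 at 0.266% and 0.324%. The median marker, at 1.19% and 1.41%, was again above Hells. Dnmt1, with too few UMIs to be counted here, was at 0.249% in WT and 0.605% in KO, also below the median marker. The part of such RNA in the Hells and Dnmt1 ratios of round spermatids was not tested. Dnmt3a had 35 WT and 58 KO UMIs and a ratio of 0.96 (0.33 to 1.61). It was under 1.5 times at a clustering resolution of 0.8 (0.31) and without integration (0.38). Dnmt3l was at -0.37 (-0.56 to -0.19) over both mid-stage clusters and at -0.62 (-1.03 to -0.22) in the Cd46 cluster. Outside the 7 classes, sperm-like cells had 37 WT and 54 KO UMIs of Hells, a ratio of 1.46 (0.83 to 2.10). Uhrf1 had 24 WT and 26 KO UMIs there, a ratio of 1.03 (0.17 to 1.89). Macrophage-like cells held 1 WT and 104 KO UMIs of Hells, a ratio of 5.41 (2.90 to 10.7) that rests on that 1 WT UMI. These pairs had enough UMIs and were past 1.5 times, but were not counted. The part of freed RNA in their ratios was not tested.

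In Leydig-like cells 2 of 4 genes were higher and 1 lower, where 15.2% of genes were higher and 20.9% lower. Hells had 6 WT and 256 KO UMIs and a ratio of 2.09 (0.95 to 3.55), which was 0.91 without doublets. As a percentage of the level in spermatogonia-like cells, Hells was at 0.782% in WT and 2.78% in KO. Stra8 was at 0 and 2.41%, Crabp1 at 0 and 2.75%, and the median marker at 0 and 2.75%. The part of freed RNA in this ratio was not tested. Tet2 had 3 and 86 UMIs and a ratio of 1.52 (-0.07 to 3.83), and Dnmt1 one of 0.25 (-0.63 to 1.29). Dnmt3l, the gene that was lower, had 9 and 43 UMIs and a ratio of -1.06 (-2.12 to 0.16). Its direction turned at a clustering resolution of 0.8 (0.76) and without integration (0.39). Dnmt3l was highest in round spermatids, and the sperm marker list was at 1.61% of UMIs in WT and 1.21% in KO Leydig-like cells. The part of RNA freed from spermatids in the Dnmt3l ratio was not tested.

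Among Sertoli-like cells 4 of 5 genes were higher, but so were 59.0% of all genes, and 17.5% were lower. The median ratio of all genes was 0.85, the WT group had 52 cells, and the sperm marker list took 17.0% of its UMIs against 3.79% in KO. Dnmt3b and Tet2 had 0 UMIs in WT, and 68 and 60 in KO. Taking 3 counts for WT, they were 2.33-fold and 2.05-fold higher in KO. The lower limits of their counting intervals were 0.88 and 0.70 on the log2 scale. With thinned cells the ratios at 3 counts for WT were 0.35 and -0.0011 on the log2 scale, under 1.5 times for both. Hells had 3 WT and 97 KO UMIs, a log2 ratio of 1.73 (0.14 to 4.03) that was 0.95 with thinned cells, and Dnmt1 had 1 and 52, a ratio of 2.42 (-0.12 to 7.75).

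Other genes of DNA methylation, from lists of readers, base repair, methyl donors, recruitment and retrotransposon silencing, were counted by the same rule in spermatogonia-like cells, beside the 10.9% of all genes that were higher and the 15.5% that were lower. Of the readers of methylated DNA 1 of 8 were higher in KO and 1 lower: Mbd1 (15.3 and 23.4 CPM in WT and KO, a log2 ratio of 0.61, 0.02 to 1.26), a methyl-CpG binding protein, and Trim28 (102 and 60.8 CPM, a log2 ratio of -0.75, -0.997 to -0.49), a corepressor recruited by zinc finger proteins. Of base repair and active demethylation 2 of 9 were higher, Gadd45g (20.02 and 55.1 CPM, a log2 ratio of 1.46, 0.96 to 2.01) and the glycosylase Neil2 (8.83 and 17.1 CPM, a log2 ratio of 0.95, 0.18 to 1.82). Gadd45g was at 533 CPM in WT and 1704 CPM in KO Leydig-like cells, its highest class, a log2 ratio of 1.68 (1.55 to 1.80). Of methyl donors and 2-oxoglutarate supply 1 of 7 was higher, Idh1, an isocitrate dehydrogenase that makes the TET cosubstrate, at 24.1 and 37.8 CPM, a log2 ratio of 0.65 (0.18 to 1.15). Idh1 was also highest in Leydig-like cells, at 815 CPM in WT and 761 CPM in KO. The list of Leydig markers made up 0.00253% of the UMIs of spermatogonia-like cells in WT and 0.0254% in KO. The part of such RNA in the ratios of Gadd45g and Idh1 was not tested.

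Of the recruitment list 2 of 15 were higher, Cdca7l (23.0 and 35.9 CPM, a log2 ratio of 0.64, 0.16 to 1.17) and Dppa3 (1 and 52 UMIs, a log2 ratio of 3.41, 0.86 to 8.74), a factor known to keep UHRF1 from chromatin. Of retrotransposon methylation 2 of 7 were higher, Morc1 (28.3 and 59.1 CPM, a log2 ratio of 1.06, 0.63 to 1.52), needed for silencing of retrotransposons in the male germ line, and Piwil4 (2.94 and 10.9 CPM, a log2 ratio of 1.89, 0.62 to 3.55), the PIWI protein of prospermatogonia. The medians of these 5 lists were 0.17, 0.22, 0.29, 0.22 and 0.27, where that of all genes was 0.04. The ratios of the list genes are given without the alternatives used for the 9 genes. Their part due to the mixture of stages was not tested, and undifferentiated cells took 4.02% of the reclustered cells in WT and 15.1% in KO. Of the S phase list 2 of 30 genes were higher and of the G2 and M phase list 0 of 12, with medians of 0.17 and 0.16. Cdca7, the partner of HELLS, was highest in spermatogonia-like cells as Hells was in WT, at 121 CPM in WT and 144 CPM in KO.

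In later germ cells the lists held other members. Ahcy, which clears the product of methylation reactions, was lower in KO late spermatocyte-like cells, at 10.7 CPM in WT and 5.61 CPM in KO, a log2 ratio of -0.93 (-1.38 to -0.50). In early-stage round spermatid-like cells it was at 7.02 and 2.76 CPM, a ratio of -1.35 (-2.10 to -0.64). Tdrd9, a helicase of the piRNA pathway, was lower in early spermatocyte-like cells, at 240.3 and 132 CPM, a log2 ratio of -0.86 (-1.32 to -0.39). Gadd45g was higher in KO in late spermatocyte-like cells (4 and 73 UMIs, a log2 ratio of 4.49, 3.08 to 6.41) and in mid-stage round spermatid-like cells (14 and 97 UMIs, a log2 ratio of 3.02, 2.21 to 3.95), in a library with 1167 Leydig-like cells against 93. In late spermatocyte-like cells, where 10.3% of all genes were higher and 7.47% lower, 2 of 7 readers were higher, Mbd1 (a log2 ratio of 0.60, 0.25 to 0.95) and Mbd4 (0.72, 0.00031 to 1.45). There 1 of 5 genes of base repair were higher, 2 of 8 of methyl donors with 1 lower, 1 of 9 of recruitment with 1 lower, and 0 of 7 of retrotransposon silencing with 0 lower. Of the S phase list 8 of 23 were higher and 0 lower, with a median ratio of 0.0086 against 0.03 over all genes. Zfp57, a reader of imprinted regions, was highest in mid-stage round spermatid-like cells, at 43.9 CPM in WT and 32.0 CPM in KO.

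The genes whose levels most resembled those of the 9 were sought over 21 sums of class and library with at least 20 cells, by Pearson correlation of log2(CPM + 1) among 16401 genes. These sums share depth and the same cells, so the values only describe likeness. Rfc5, a subunit of the clamp loader of replication, was the nearest to Dnmt1 (r = 0.96), Utp20 and Tex19.1 to Hells (0.98 and 0.97), and Rad51c, Gpsm2 and Rrm2, genes of recombination, of spindle orientation and of nucleotide supply, to Uhrf1 (0.97, 0.96 and 0.95). Dnmt3l was nearest to 1700124L16Rik, Gm12206 and Fam47c (0.98, 0.97 and 0.97), Dnmt3b to Ripk4 (0.95) and Dnmt3a to Gm45716 (0.93). Tet2 was nearest to Irf1, Nfkbiz and Egr2 (0.94, 0.93 and 0.93), genes induced by cytokines or growth factors, and Tet3 to Bid (0.93).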

How the data were processed

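Testis cells of both genotypes were profiled by single-cell RNA sequencing with the GEXSCOPE kit, as 1 WT and 1 KO library. The authors deposited UMI counts per gene and barcode, without normalization. The submitters' processing notes name fastp, featureCounts 1.6.2 and STAR 2.5.3a. The methods name GRCh38 although the symbols are those of the mouse, so the build behind the counts is uncertain, and the strand setting is not given in the sources used here.

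Cells with over 500 genes were integrated with Seurat 5.3.0 in R 4.3.3 (2000 features without the 9 genes, 20 anchor dimensions, 30 principal components, resolution 0.3, also for the sub-clusters), on 1 thread with a fixed linear algebra kernel, since the border of early-stage and mid-stage round spermatids moved with the number of threads. A cluster was named from at least 3 markers with a UMI in 10% of its cells and 2 times the level elsewhere, and otherwise by a leading gene. Doublets (243 WT and 348 KO cells, by Scrublet in scanpy 1.11.5) were kept. UMIs were summed per library and group in Python 3.11.15 with scipy 1.17.1. Sums have exact Poisson, shares exact Clopper-Pearson and log2 ratios exact conditional 95% intervals, all for counting error only, since UMIs of 1 library are not replicates. Where a sum was 0, the level allowed and the ratio are those at 3 counts. The ratio code was tested on simulated data.

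The genes and lists were chosen with earlier results of these data known. The genes named were the 9, markers and list genes, up to 5 list genes per direction past 1.5 times with at least 50 UMIs, and the 3 nearest by correlation, of which some are printed. Cdca7, Zfp57 and Gadd45g in Leydig-like cells were singled out after their values were seen. A gene of the reader list is not reported here and was left out of its counts. The alternatives, whose effect the closing section gives, were the 9 genes among the features, resolution 0.8, no integration, over 1000 genes per cell, doublets removed, other totals, thinned cells, equal weight of sub-clusters, a fold of 2 and other minimums. Leaving out the group led by Tnp2 and another clustering seed were added after seeing the data.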

Additional observations from a re-analysis of the deposited data

How the results depend on the processing

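With 1 library per genotype, every ratio has counting error only behind it, and a different library might move it by more. WT somatic and spermatogonia-like groups were small, so their low genes could not be placed. No paired analysis was possible because each genotype has 1 library, and no replicate could be left out for the same reason. The count of pairs higher in KO was 12, and it was 5 with thinned cells, where fewer UMIs reach the minimum, and 30 with no minimum of UMIs. Over the other alternatives it ranged from 8 to 16. The share of all genes is not given beside these counts, so they only describe how the count moved. The count of pairs lower in KO was 1, and it was 0 at a clustering resolution of 0.8, 0 without integration, 0 with doublets removed, 0 with thinned cells and 5 with no minimum. With doublets removed and with thinned cells that pair, Dnmt3l in Leydig-like cells, had under 50 UMIs left and ratios of -1.19 and -1.20. Another clustering seed, tried after the data had been seen, gave 12 and 1. Of 256 log2 ratios under the alternatives, 238 lay within the counting interval of the reported value, 16 outside it and 2 were reversed. The reversed ratios were those of Dnmt3l in Leydig-like cells, 0.76 at a resolution of 0.8 and 0.39 without integration. Of those outside, the bounds for Dnmt3b and Tet2 in Sertoli-like cells were 0.35 and -0.0011 on the log2 scale with thinned cells, where fewer UMIs were left. The cause of the others was not tested.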
